A study of Homo sapiens with 48 samples.

Results

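The 36 genes described here encode the cytosolic heat shock proteins, their partners and the chaperonins, read here in 22Rv1 cells, which come from a human prostate carcinoma that grew on after castration. They were taken by symbol from a list of 36. All 36 were found among the 61817 entries of the count table, and all 36 passed the filter on low counts that left 20009 genes for testing. RNA-Seq was performed on 48 libraries, 3 from each of 16 groups. Rv1-WT stands for the unmodified cells. Rv1-Luc received a lentivirus with firefly luciferase and a blasticidin resistance gene. Both were kept in medium with whole fetal bovine serum (FBS) or in androgen-depleted medium with charcoal-stripped serum (CSS). The dKO derivatives lack both Mediator kinase genes, CDK8 and CDK19, after CRISPR/Cas9 editing, and carry 1 kinase returned by lentivirus. The returned kinase is wild-type CDK8 in dKO-8 and wild-type CDK19 in dKO-19, and a mutant without kinase activity in dKO-8M and in dKO-19M. All 4 were grown in FBS only. The promoter of the returned genes and the clonality of the lines were not examined here. Each combination received 500 nM SNX631, an inhibitor of CDK8 and CDK19, or the vehicle, 0.1% DMSO, for 72 hours. The labels call the 3 libraries of a group biological replicates of 1 cell line. The p-values therefore cover the spread between cultures within groups, estimated over all 16 groups together, and not the spread between lines. The CSS cultures were also passaged once in CSS beforehand and were seeded at a higher density than the FBS cultures, so medium, passage and density cannot be told apart. The dKO derivatives descend from the same double-knockout cells but by separate routes. dKO-19 and dKO-19M were made from them directly, whereas dKO-8 and dKO-8M were made from cells that already carried a lentiviral vector without an insert. Differences between lines therefore stand for those lines only.

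Heat shock proteins bind unfolded or partly folded proteins. HSP70 proteins (HSPA1A, HSPA1B and HSPA8) hold and release short hydrophobic stretches in a cycle of ATP hydrolysis. J-domain proteins of the DNAJ family start that cycle, and nucleotide exchange factors (the HSP110 proteins, BAG3 and HSPBP1) reset it. HSP90 acts later, with co-chaperones that load clients or drive its own cycle, and steroid hormone receptors depend on HSP70, HSP90 and the immunophilin FKBP4 to reach a state that binds hormone. Small heat shock proteins such as HSPB1 and CRYAB keep damaged proteins soluble. The TRiC/CCT chaperonin, a double ring of 8 different subunits, folds actin, tubulin and other proteins inside its chamber. HSF1 is the transcription factor that drives most of these genes after heat or other protein damage, through DNA sites made of repeated GAA and TTC units.

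The stretch of 250 bases before the annotated start is shown for 4 members, since HSF1 sites of heat shock genes usually lie there. The first 3 of these genes fell in CSS in Rv1-WT, and CHORDC1 was not called. The sequences are from RefSeq (GRCh38.p14), read 5′ to 3′ on the strand of the gene. They cover chr6:31815293-31815542, plus strand, for HSPA1A, chr6:31827488-31827737, plus strand, for HSPA1B, chr11:123062137-123062386, minus strand, for HSPA8, and chr11:90223050-90223299, minus strand, for CHORDC1, which encodes an HSP90 co-chaperone. Capitals mark every GAANNTTC or TTCNNGAA, that is, a pair of facing units of the heat shock element, and any further unit next to such a pair at the same spacing.
HSPA1A: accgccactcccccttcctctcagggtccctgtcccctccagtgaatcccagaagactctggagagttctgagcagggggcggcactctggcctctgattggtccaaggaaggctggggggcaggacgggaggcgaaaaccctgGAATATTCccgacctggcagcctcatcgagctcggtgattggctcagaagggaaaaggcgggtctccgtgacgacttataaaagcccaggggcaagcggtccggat
HSPA1B: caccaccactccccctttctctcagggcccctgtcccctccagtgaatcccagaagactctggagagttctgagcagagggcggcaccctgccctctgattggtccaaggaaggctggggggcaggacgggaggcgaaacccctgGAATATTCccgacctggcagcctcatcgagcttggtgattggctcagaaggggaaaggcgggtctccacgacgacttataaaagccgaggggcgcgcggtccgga
HSPA8: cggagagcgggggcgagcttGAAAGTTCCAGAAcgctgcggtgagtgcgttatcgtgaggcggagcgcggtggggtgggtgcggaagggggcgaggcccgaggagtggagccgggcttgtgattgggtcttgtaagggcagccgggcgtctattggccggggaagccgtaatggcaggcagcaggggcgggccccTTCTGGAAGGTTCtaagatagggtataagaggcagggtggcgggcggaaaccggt
CHORDC1: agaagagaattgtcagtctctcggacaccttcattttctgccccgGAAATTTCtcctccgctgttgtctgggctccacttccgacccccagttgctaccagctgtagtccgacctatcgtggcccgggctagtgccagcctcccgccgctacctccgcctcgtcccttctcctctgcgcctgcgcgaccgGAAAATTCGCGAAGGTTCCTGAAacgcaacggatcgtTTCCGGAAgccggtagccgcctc

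HSPA1A and HSPA1B each held 1 pair, GAATATTC in both, which began 106 and 105 bases before the start. HSPA8 held 2 blocks of 3 units, beginning 230 and 55 bases before it. CHORDC1 held the longest unbroken block of the 4, of overlapping pairs that began 60 bases before the start, and its log2 changes over all 27 comparisons lay between -0.22 and 0.33, none of them called. Promoter entries were found for 32 of the 36 members, 48 entries in all, and CRYAB, FKBP4, CCT6A and HSF1 had none. A pair was present in 15 of these 48 entries (31.2%) against 11.6% of all 35116 promoters of the same length, and 3 units in a row in 6 entries (12.5%) against 0.441%. Both strands were covered, since each pair reads the same on either strand. Only exact units were searched for, so a stretch without a match is not shown to lack a site with altered units. A match is only a run of letters and does not show that HSF1 was bound.

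HSPA1A and HSPA1B are neighboring copies on chromosome 6 that encode almost the same protein. Their upstream stretches matched at 235 of 249 aligned positions (94.4%), and 69.9% of the 100-base windows of the longest HSPA1A transcript in GENCODE release 29 were found unchanged in HSPA1B. Reads from those stretches fit both genes. The deposited counts of HSPA1A were fractional in 83.3% of libraries and those of HSPA1B in 81.2%, so the division of reads between them is uncertain. Fractions were also common for HSPE1 (93.8% of libraries), HSPA8 (62.5%), HSP90AB1 (54.2%), CCT6A (50%), HSPA9 (47.9%), TCP1, CDC37 and DNAJB4 (43.8% each), HSPA4L (31.2%) and PTGES3 (27.1%). In all, 27 of the 36 members had at least 1 fractional count, and 9 had none.

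Library totals ran from 13230000 to 31500000 counts, and the Rv1-WT libraries were the shallowest, at 13230000 to 18200000. In every library of Rv1-WT, Rv1-Luc, dKO-8 and dKO-19, all 8 luminal prostate markers looked up exceeded 1 CPM (counts scaled to library size). In dKO-8M and dKO-19M 7 of 8 did so, and KLK3 fell short. Their levels were not alike. FOLH1 read 331 to 548 CPM in Rv1-WT and Rv1-Luc and 4.90 to 30.9 CPM in the dKO libraries. KRT8 (418 to 1761 against 2068 to 3410 CPM) and KRT18 (385 to 551 against 620 to 837 CPM) were higher in the dKO libraries. The ranges of the other markers, among them HOXB13, overlapped. These differences were not tested. The 4 plasma cell markers together reached 1.29 to 20.6 CPM in Rv1-Luc overall and at most 0.462 CPM in Rv1-WT, where IGKC was at 0 in every library. Within Rv1-Luc they also moved with medium, at 8.78 to 20.6 CPM in FBS and 1.59 to 3.37 CPM in CSS under vehicle, with no overlap, and 1.29 to 8.19 and 3.18 to 15.3 CPM under SNX631, where the groups overlapped. Summed leukocyte markers were at most 2.22 CPM and endothelial markers at most 0.944 CPM in any library, and fibroblast markers, almost all COL1A1, 2.62 to 10.8 CPM. CDK8 read 25.4 to 28.3 CPM in Rv1-WT and CDK19 148 to 281 CPM, and both transcripts were still counted in the dKO libraries (24.9 to 134 and 101 to 519 CPM), where an edited transcript and the returned kinase are not separated by counts per gene. Replicate 1 of vehicle-treated dKO-19M stood apart from the other 2, its counts differing from theirs by a chi-square of 16.01 and 15.5 for each degree of freedom. The next pair, at 8.82, was replicates 1 and 2 of vehicle-treated Rv1-Luc in FBS, a group used in the CSS comparisons below.

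The first question was how androgen-depleted medium changed chaperone expression. In vehicle-treated Rv1-WT, HSP70 genes, several of their partners and FKBP4 were lower in CSS. 10 members fell and 1 rose, where a call needed a false discovery rate (FDR) below 0.01 and a fold change above 1.5 in edgeR's quasi-likelihood test. Of all genes tested, 4.78% fell and 6.09% rose by the same rule. The median log2 fold change was -0.27 over the 36 members and 0.0071 over all genes, and 33 of 36 values were negative. Levels below are CPM on the scale of the fit, given for replicates 1, 2 and 3 in that order, and the figure of levels by group shows every library.

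HSPA1B, the better covered of the stress-inducible HSP70 pair, read 101, 96.4 and 101 CPM in FBS and 36.3, 36.6 and 37.8 CPM in CSS. The groups did not overlap, and the level fell 2.69-fold (log2 -1.43 ± 0.053 (SE), FDR = 9.16e-31). HSPA1A read 15.1, 14.03 and 15.98 CPM in FBS and 5.66, 4.03 and 3.83 CPM in CSS, a fall of 3.34-fold (log2 -1.74 ± 0.13 (SE), FDR = 2.28e-17). With both genes counted as 1, so that the division of reads between them no longer mattered, the log2 change was -1.47 ± 0.051 (SE). Fractions remained in the sum, as in replicate 1 in FBS (257.5 and 1715 counts), so some reads were also divided with other genes. HSPA8, the constitutive HSP70 that carries most folding work in unstressed cells, read 1658, 1744 and 1639 CPM in FBS and 682, 602 and 628 CPM in CSS. Every CSS library lay far below every FBS library, and the fall was 2.64-fold (log2 -1.40 ± 0.043 (SE), FDR = 4.48e-34).

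Some regulators of the HSP70 cycle fell as well. HSPH1, an HSP110 protein and exchange factor, read 96.96, 101 and 100.4 CPM in FBS and 55.3, 53.2 and 50.3 CPM in CSS, 1.88-fold lower (log2 -0.91 ± 0.048 (SE), FDR = 9.85e-24). HSPBP1, another exchange factor, read 55.4, 55.6 and 59.2 CPM and 28.1, 29.2 and 31.2 CPM, 1.92-fold lower (FDR = 2.92e-19). DNAJA1, a J-domain partner of HSPA8, read 356, 363 and 372 CPM and 224, 204 and 211 CPM, 1.70-fold lower (FDR = 6.45e-22). In each of these genes the 3 CSS libraries lay below the 3 FBS libraries. The remaining partners of HSP70 were not called. DNAJB1, the stress-inducible J-domain protein, had a log2 change of -0.51 ± 0.043 (SE), BAG3 -0.33 ± 0.077 (SE), HSPA4L -0.47 ± 0.05 (SE) and HSPA4 -0.081 ± 0.037 (SE). DNAJA2, DNAJB4 and DNAJB6 lay between -0.092 and 0.0065.

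**Figure D1:**
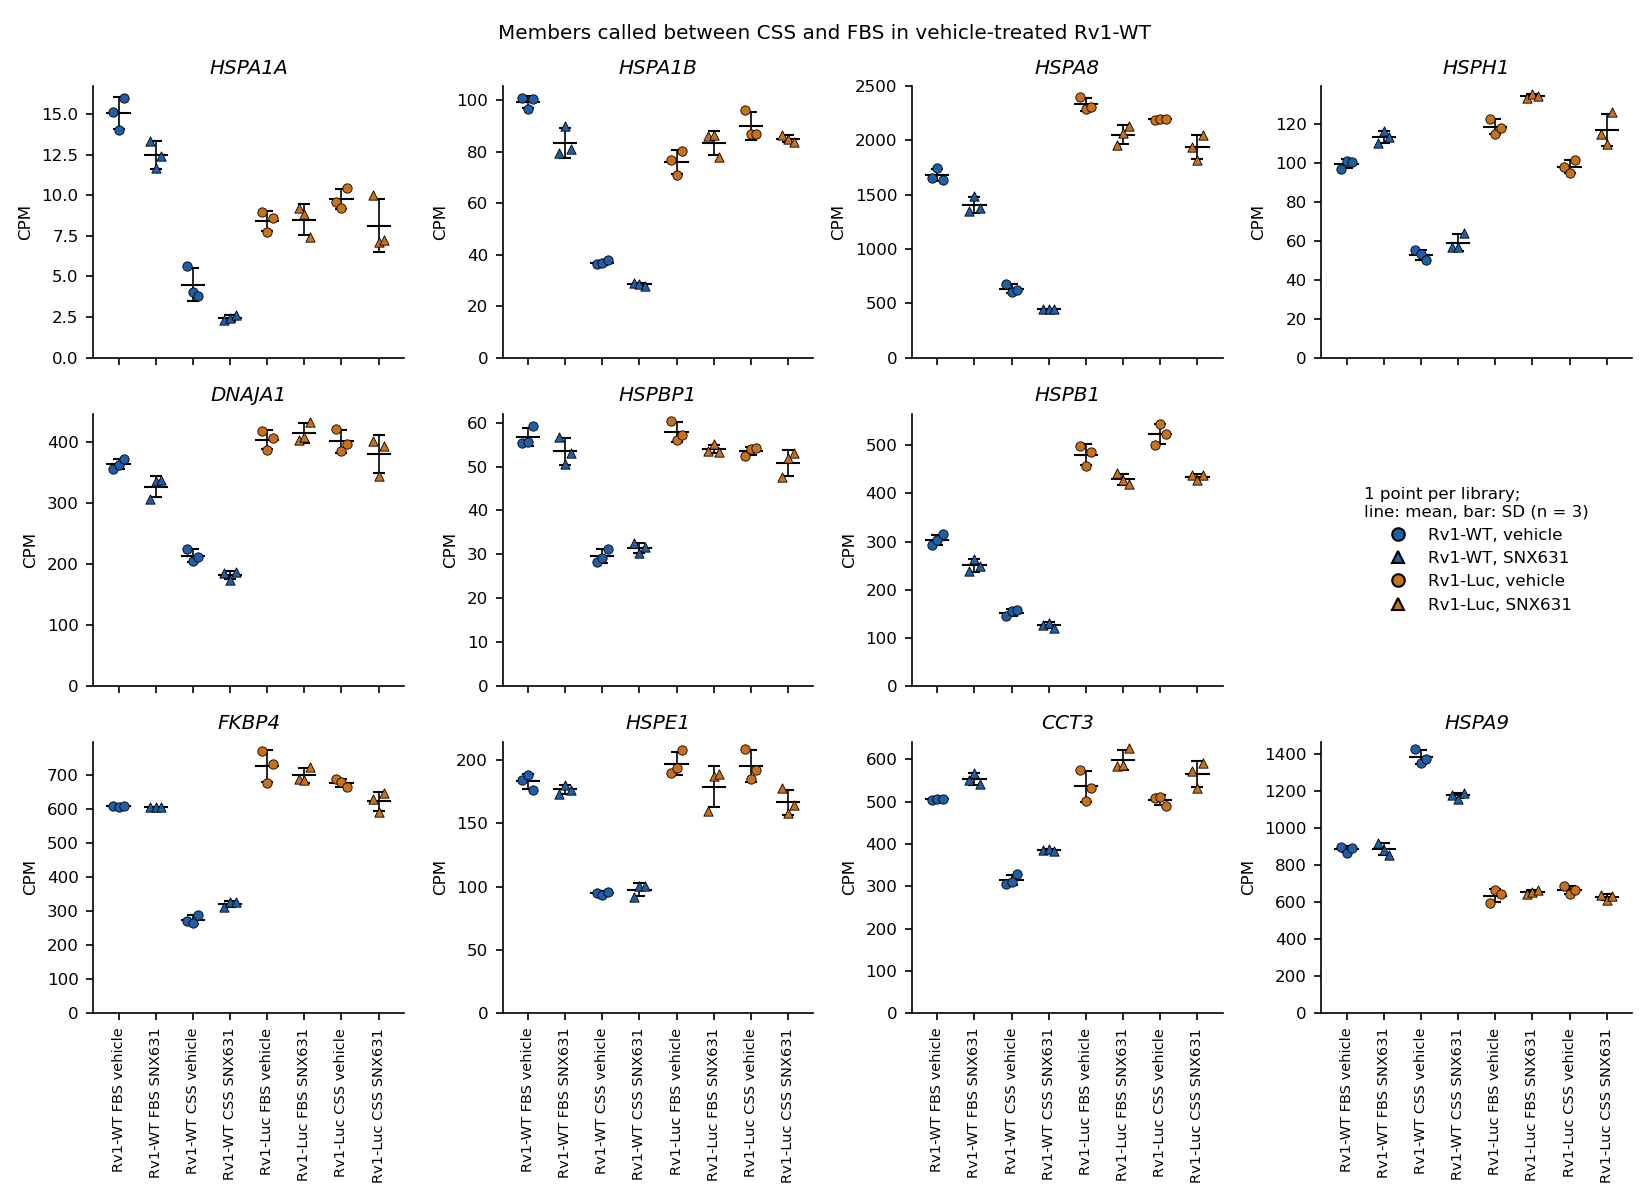
Level in CPM (vertical axes, from 0) of the 11 members called between CSS and FBS in vehicle-treated Rv1-WT, for each library of Rv1-WT (blue) and Rv1-Luc (orange). Circles are vehicle and triangles SNX631, lines are means and bars SD (n = 3). In Rv1-WT the CSS libraries are below the FBS libraries in 10 panels and above them in the HSPA9 panel, whereas the Rv1-Luc groups lie close together.

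Among the HSP90 genes and their co-chaperones, FKBP4, the immunophilin of steroid receptor complexes, was the member that passed the limits. Its level was 609, 605 and 610.0 CPM in FBS and 270.3, 266 and 290.2 CPM in CSS, a fall of 2.21-fold (log2 -1.14 ± 0.039 (SE), FDR = 4.02e-32). HSP90AA1 and HSP90AB1, which encode the inducible and the constitutive HSP90, had log2 changes of -0.54 ± 0.045 (SE) and -0.37 ± 0.034 (SE), both under the 1.5-fold limit. AHSA1, which stimulates the HSP90 ATPase, changed by -0.55 ± 0.051 (SE), PTGES3, the p23 co-chaperone, by -0.42 ± 0.041 (SE), STIP1, which hands clients from HSP70 to HSP90, by -0.27 ± 0.044 (SE) and CDC37, the kinase co-chaperone, by -0.24 ± 0.046 (SE) on the log2 scale. CHORDC1, whose promoter is printed above, read 40.8, 38.4 and 43.3 CPM in FBS and 38.1, 37.2 and 37.00 CPM in CSS (log2 -0.13 ± 0.056 (SE), FDR = 0.0653), a change inside the fold limit although the 3 CSS libraries lay just below the 3 FBS libraries.

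HSPB1, a small heat shock protein, read 292, 303 and 315 CPM in FBS and 145, 155 and 157 CPM in CSS, 1.99-fold lower (log2 -0.995 ± 0.059 (SE), FDR = 2.22e-19). CRYAB was near the limit of counting in both media and is described with SNX631 below. The mitochondrial chaperones went apart. HSPE1, the co-chaperonin HSP10, read 184, 188 and 177 CPM in FBS and 95.1, 93.04 and 95.9 CPM in CSS, 1.93-fold lower (FDR = 1.39e-17). HSPD1, its partner HSP60, had a log2 change of -0.25 ± 0.033 (SE) and was not called. HSPA9, the mitochondrial HSP70, was the 1 member that rose, from 899, 867 and 893 CPM to 1427, 1351 and 1373 CPM, 1.56-fold (log2 0.64 ± 0.033 (SE), FDR = 5.54e-24). The transcription factors changed little, HSF1 by 0.24 ± 0.055 (SE) and HSF2 by -0.046 ± 0.07 (SE) on the log2 scale.

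Among the TRiC/CCT subunits, CCT3 read 504, 506 and 506 CPM in FBS and 305, 310.0 and 329 CPM in CSS, 1.61-fold lower (FDR = 3.79e-21), and was the 1 subunit of 8 that was called. The other 7 had log2 changes of -0.27 to -0.024. All 8 values were negative, and 7 of 8 passed an FDR of 0.05 with no limit on the fold, where 44.9% of all genes did.

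SNX631-treated Rv1-WT gave much the same picture in its own libraries. In CSS 10 members fell against FBS and none rose, with 2.97% of all genes falling, and the median log2 change was -0.30 over the members and 0.0077 over all genes. HSPA1A read 13.3, 11.7 and 12.4 CPM in FBS and 2.29, 2.46 and 2.65 CPM in CSS, 5.03-fold lower (log2 -2.33 ± 0.15 (SE), FDR = 4.36e-20). With HSPA1A and HSPA1B counted as 1 gene, the change was -1.63 ± 0.053 (SE) on the log2 scale and was still called. HSPA8 read 1346, 1493 and 1379.5 CPM and 447, 449 and 445 CPM, 3.14-fold lower (FDR = 1.4e-37). HSPA1B was 2.92-fold lower, HSPB1 1.99-fold, HSPH1 1.91-fold, FKBP4 1.88-fold, HSPE1 1.81-fold, DNAJA1 1.80-fold and HSPBP1 1.70-fold. DNAJB1 was also called here, 1.73-fold lower (log2 -0.79 ± 0.044 (SE)), while CCT3 (log2 -0.52) and HSPA9 (log2 0.41) stayed inside the fold limit.

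In Rv1-Luc no member passed the limits in CSS against FBS, under vehicle or under SNX631, in either direction. The plasma cell transcripts differed between these media under vehicle, as given above, and their part in the comparison was not tested. Under vehicle 1.49% of all genes were called and under SNX631 1.51%. DESeq2 also called no member in either comparison, and 18 and 15 members had an unadjusted p below 0.05 in edgeR. Of all 20009 genes tested, 5157 and 5046 did. HSPA8 read 2402, 2291 and 2304 CPM in FBS and 2191, 2196 and 2195 CPM in CSS (log2 -0.088 ± 0.041 (SE)). HSPA1B read 76.9, 70.99 and 80.1 CPM in FBS and 96.2, 86.96 and 86.9 CPM in CSS, so its libraries were slightly higher in CSS (log2 0.25 ± 0.047 (SE), FDR = 9.83e-05). HSPA1A likewise read 8.95, 7.75 and 8.57 CPM and 9.60, 9.24 and 10.5 CPM (log2 0.21 ± 0.11 (SE)). FKBP4 read 769.9, 676 and 731 CPM and 689, 679.7 and 666 CPM (log2 -0.10 ± 0.038 (SE)), and HSPB1 499, 458 and 487 CPM and 502, 544 and 524 CPM (log2 0.12 ± 0.055 (SE)). The median over the members was -0.073 under vehicle and -0.077 under SNX631, against 0.01 and 0.0093 over all genes.

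**Figure D2:**
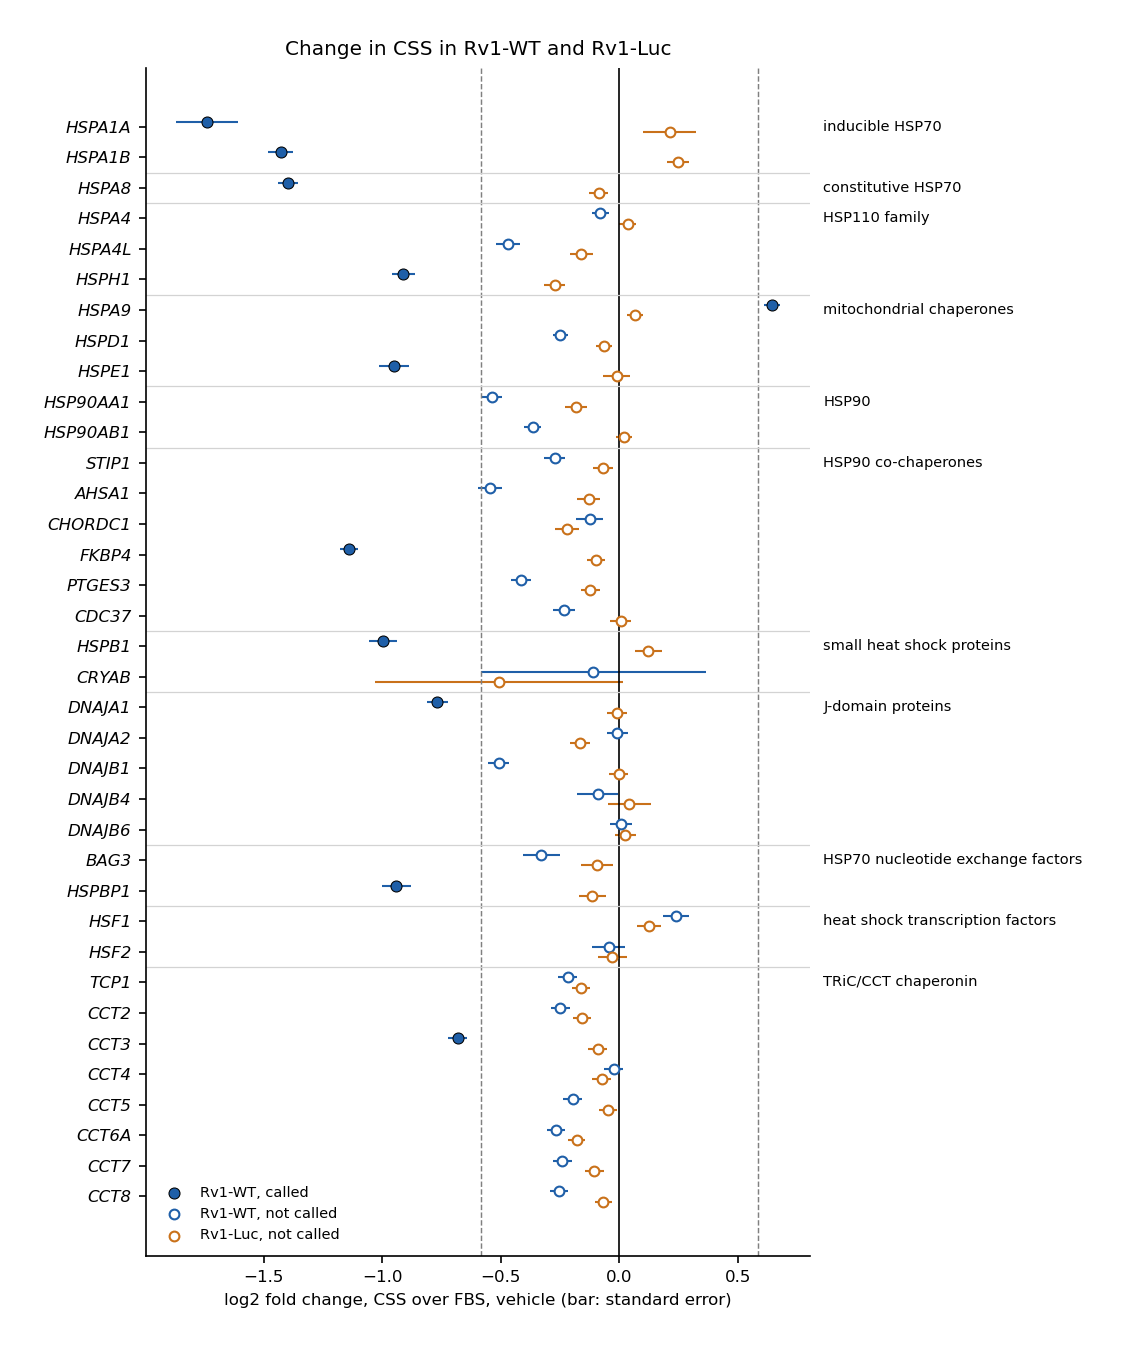
Log2 fold change of CSS over FBS under vehicle (horizontal axis) for each of the 36 members, grouped by role, in Rv1-WT (blue) and Rv1-Luc (orange). Bars are standard errors, filled points were called, and dashed lines mark a 1.5-fold change. The Rv1-WT values of HSPA1A, HSPA1B, HSPA8 and FKBP4 lie below -1, and every Rv1-Luc point is open.

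Whether CSS acted differently in the sublines was tested directly, as the difference between their CSS effects. Under vehicle 10 members had a more positive effect in Rv1-Luc and 0 a more negative one, where 4.61% of all genes were more positive. These were HSPA1A (log2 difference 1.95 ± 0.17 (SE)), HSPA1B (1.67 ± 0.07 (SE)), HSPA8 (1.31 ± 0.059 (SE)), HSPB1 (1.12 ± 0.081 (SE)), FKBP4 (1.04 ± 0.054 (SE)), HSPE1 (0.94 ± 0.086 (SE)), HSPBP1 (0.83 ± 0.084 (SE)), DNAJA1 (0.76 ± 0.062 (SE)), HSPH1 (0.64 ± 0.064 (SE)) and CCT3 (0.59 ± 0.057 (SE)). HSPA1B had the lowest FDR, 1.18e-26. CCT3 and HSPH1 sat close to the fold limit, and CCT3 fell inside it when any of 5 libraries was left out, with log2 differences of 0.54 to 0.58, the lowest without replicate 2 of vehicle-treated Rv1-Luc in FBS. With library size in place of TMM factors both calls were lost (0.57 for HSPH1 and 0.53 for CCT3), and with no low-count filter that of CCT3 was (0.58). The plasma cell transcripts, which differed between the vehicle groups of Rv1-Luc compared here, were not tested for a part in these differences. HSPA9, the member that rose in Rv1-WT, had a difference of -0.58 ± 0.047 (SE) and was just inside the limit. Under SNX631, in libraries that the vehicle comparison did not use, 10 members were more positive in Rv1-Luc and 0 more negative, with 2.66% of all genes more positive. The values were 2.26 ± 0.19 (SE) for HSPA1A, 1.57 ± 0.059 (SE) for HSPA8, 1.57 ± 0.072 (SE) for HSPA1B and 1.01 ± 0.082 (SE) for HSPB1, and 0.68 to 0.79 for DNAJB1, HSPE1, FKBP4, HSPH1, DNAJA1 and HSPBP1.

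The sublines were then compared within each medium. These comparisons reuse the libraries of the CSS comparisons and are not separate evidence for them. In FBS under vehicle 3 members differed, where 17.8% of all genes did. HSPA1A was 1.79-fold lower in Rv1-Luc (log2 -0.84 ± 0.11 (SE)), DNAJB4 1.73-fold lower (log2 -0.79 ± 0.09 (SE)) and HSPB1 1.59-fold higher (log2 0.67 ± 0.057 (SE)). The HSPA1A call was lost with HSPA1A and HSPA1B counted as 1 gene (log2 -0.44 ± 0.047 (SE)). In CSS 13 members were higher in Rv1-Luc and 2 lower, where 15.1% of all genes were higher and 31.1% differed in either direction. HSPA8 and HSPB1 were both 3.44-fold higher, FKBP4 2.46-fold, HSPA1B 2.44-fold, HSPA1A 2.16-fold and HSPE1 2.06-fold. DNAJA1, HSPH1, HSPBP1, HSP90AA1, DNAJB1, CCT3 and HSP90AB1 were 1.54- to 1.88-fold higher. HSPA9 was 2.08-fold lower and DNAJB4 1.58-fold lower. The call of DNAJB4 in CSS was lost without replicate 1 of Rv1-WT or replicate 2 of Rv1-Luc (log2 -0.55 and -0.58). The plasma cell transcripts named above moved with Rv1-Luc and, under vehicle, with its medium, and their part in these differences was not tested. In Rv1-WT these transcripts together reached at most 0.462 CPM.

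HSPA1A set the dKO lines apart. It read 0.608 to 1.77 CPM in the 24 dKO libraries and 2.29 to 15.98 CPM in the 24 libraries of Rv1-WT and Rv1-Luc, with no overlap. The counts behind the dKO values were 12.7 to 41.2 per library. HSPA1B read 45.8 to 68.2 CPM in the dKO libraries and 27.8 to 101 CPM in the others, so the groups overlapped. The ratio of HSPA1A to HSPA1B was 0.145 to 0.159 in vehicle-treated Rv1-WT in FBS and at most 0.0291 in any dKO library. This was not a planned comparison, it rests on the division of shared reads, and it was not tested.

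**Figure D3:**
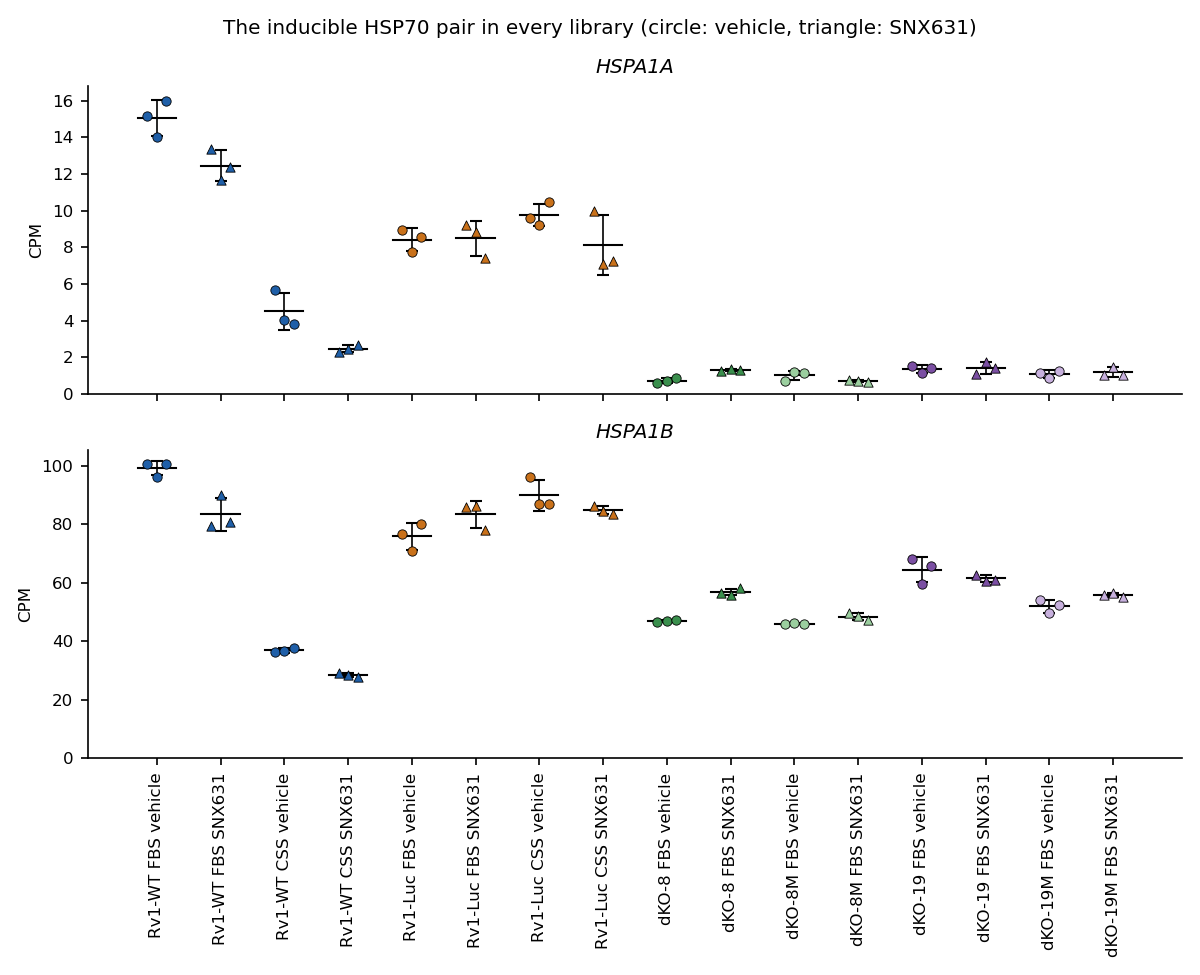
Level in CPM (vertical axes, from 0) of HSPA1A (top) and HSPA1B (bottom) in each library of the 16 groups, with lines at the means and bars for SD (n = 3). HSPA1A is at most 1.77 CPM in the dKO libraries, while HSPA1B stays at 45.8 CPM or more in them and is lowest in the CSS libraries of Rv1-WT.

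SNX631 was tested in 8 settings. CRYAB, the small heat shock protein known as alpha B-crystallin, rose in all 4 settings of Rv1-WT and Rv1-Luc, and it was the only member that rose in any of the 8 by these limits. In FBS it read 0.294, 0.536 and 0.584 CPM under vehicle and 2.47, 1.99 and 1.78 CPM under SNX631 in Rv1-WT (4.42-fold, log2 2.15 ± 0.35 (SE), FDR = 4.29e-06). In Rv1-Luc it read 0.486, 0.126 and 0.272 CPM and 2.24, 1.39 and 1.07 CPM (5.13-fold, log2 2.36 ± 0.34 (SE), FDR = 2.12e-07). Every SNX631 library lay above every vehicle library of its line. In CSS it read 0.445, 0.434 and 0.415 CPM under vehicle and 1.33, 1.71 and 2.06 CPM under SNX631 in Rv1-WT (3.92-fold, FDR = 1.14e-05), and 0.246, 0.180 and 0.185 CPM and 0.883, 1.44 and 1.17 CPM in Rv1-Luc (5.49-fold, FDR = 2.05e-06). These levels are low. The vehicle libraries of Rv1-WT in FBS held 5, 8 and 9 counts and the SNX631 libraries 41, 27 and 33, so the size of the fold is uncertain. The effect did not differ detectably between the media (log2 difference -0.17 ± 0.55 (SE) in Rv1-WT and 0.10 ± 0.55 (SE) in Rv1-Luc) or between the sublines in FBS (0.21 ± 0.53 (SE)).

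The dKO derivatives showed another pattern. CRYAB read 2.16, 2.61 and 2.28 CPM in vehicle-treated dKO-8 and 0.327, 0.381 and 0.481 CPM in dKO-8M, 6.01-fold lower with the kinase-dead protein (log2 -2.59 ± 0.31 (SE), FDR = 4.53e-10). It read 1.74, 2.88 and 1.75 CPM in dKO-19 and 0.705, 0.395 and 0.595 CPM in dKO-19M, 3.67-fold lower (log2 -1.88 ± 0.28 (SE), FDR = 2.37e-07). The vehicle libraries of dKO-8 and of dKO-19 thus overlapped with the SNX631 libraries of Rv1-WT in FBS. SNX631 left CRYAB within the limits in all 4 derivatives. Its log2 changes were 0.37 ± 0.21 (SE) in dKO-8, 0.43 ± 0.22 (SE) in dKO-19, -0.22 ± 0.45 (SE) in dKO-8M and 0.29 ± 0.35 (SE) in dKO-19M. A further pair of contrasts, chosen after these values were seen, compared the SNX631 effect in FBS between lines. The effect was more positive in Rv1-WT than in dKO-8 by 1.78 ± 0.42 (SE) on the log2 scale (FDR = 0.00295) and than in dKO-19 by 1.71 ± 0.43 (SE) (FDR = 0.00511). Both calls were fragile. The first was lost without replicate 1 of vehicle-treated Rv1-WT (FDR = 0.029) or replicate 1 of SNX631-treated Rv1-WT (FDR = 0.0153), and the second when any of 5 libraries was left out, up to an FDR of 0.0435 without replicate 1 of vehicle-treated Rv1-WT. In the same contrasts 3 members were called against dKO-8 and 1 against dKO-19, where 1.42% and 1.43% of all genes were. The other calls were HSPA1A (-1.11 ± 0.28 (SE)) and HSPB1 (-0.67 ± 0.08 (SE)), both more negative in Rv1-WT than in dKO-8. The HSPA1A call there was lost when any of 9 of the 12 libraries was left out, with FDRs of 0.0111 to 0.0335, and also with HSPA1A and HSPA1B counted as 1 gene (log2 difference -0.54 ± 0.069 (SE)).

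**Figure D4:**
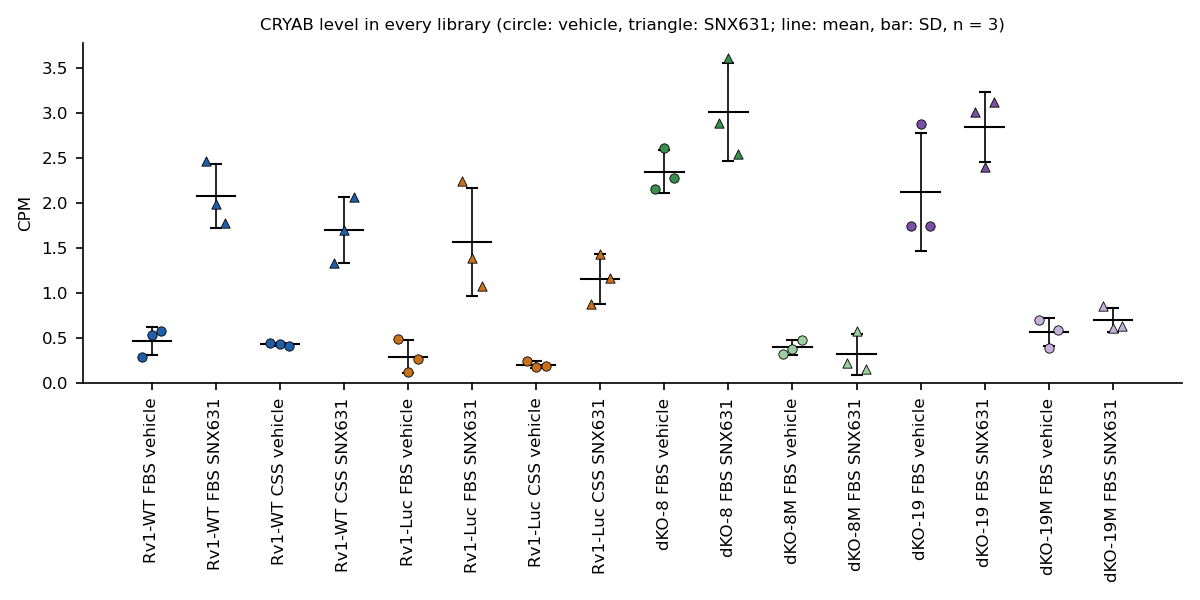
Level of CRYAB in CPM (vertical axis, from 0) in each library of the 16 groups, with lines at the means and bars for SD (n = 3). SNX631 libraries (triangles) lie above vehicle libraries (circles) in Rv1-WT and Rv1-Luc, and dKO-8M and dKO-19M stay below 0.852 CPM or at it under either treatment.

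Beside CRYAB, 1 call was made under SNX631 in all 8 settings. In Rv1-WT 1 member was called in FBS, where 2.39% of all genes were, and 2 in CSS (4.23% of all genes). In Rv1-Luc 1 was called in FBS (3.67%) and 1 in CSS (4.06%). It was HSPA1A in Rv1-WT in CSS, which read 5.66, 4.03 and 3.83 CPM under vehicle and 2.29, 2.46 and 2.65 CPM under SNX631 (1.82-fold lower, log2 -0.86 ± 0.17 (SE), FDR = 7.34e-05). With HSPA1A and HSPA1B counted as 1 gene, the change was -0.42 ± 0.057 (SE) on the log2 scale and was not called. HSPA1B alone changed by -0.37 ± 0.059 (SE) and HSPA8 by -0.51 ± 0.043 (SE) in the same setting. The difference between the SNX631 effects in CSS and FBS was -0.59 ± 0.21 (SE) for HSPA1A and not called (FDR = 0.112). No member was called under SNX631 in dKO-8, dKO-8M, dKO-19 or dKO-19M by edgeR, where 1.71%, 0.015%, 3.41% and 0.09% of all genes were, and DESeq2 called none either, although it gave CRYAB no adjusted p in dKO-19M. Unadjusted p-values were below 0.05 for 21, 3, 10 and 5 of the 36 members in that order. Of all 20009 genes tested, 5060, 1910, 6157 and 2951 had such a p-value. In dKO-8 HSPA1A was at 0.608, 0.689 and 0.870 CPM under vehicle and 1.27, 1.38 and 1.33 CPM under SNX631 (log2 0.84 ± 0.26 (SE), FDR = 0.0219), and HSPB1 at 469.9, 429.6 and 419 CPM and 555, 587 and 589.9 CPM (log2 0.39 ± 0.056 (SE)). Median changes over the members were 0.011, 0.025, 0.043, 0.015 in Rv1-WT in FBS and CSS and Rv1-Luc in FBS and CSS, and 0.091, 0.034, -0.0073, 0.046 in dKO-8, dKO-8M, dKO-19 and dKO-19M, with all-gene medians of -0.0017 to 0.0072. TRiC/CCT subunits stayed between -0.032 and 0.29 in all 8 settings, the highest value being CCT3 in Rv1-WT in CSS.

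**Figure D5:**
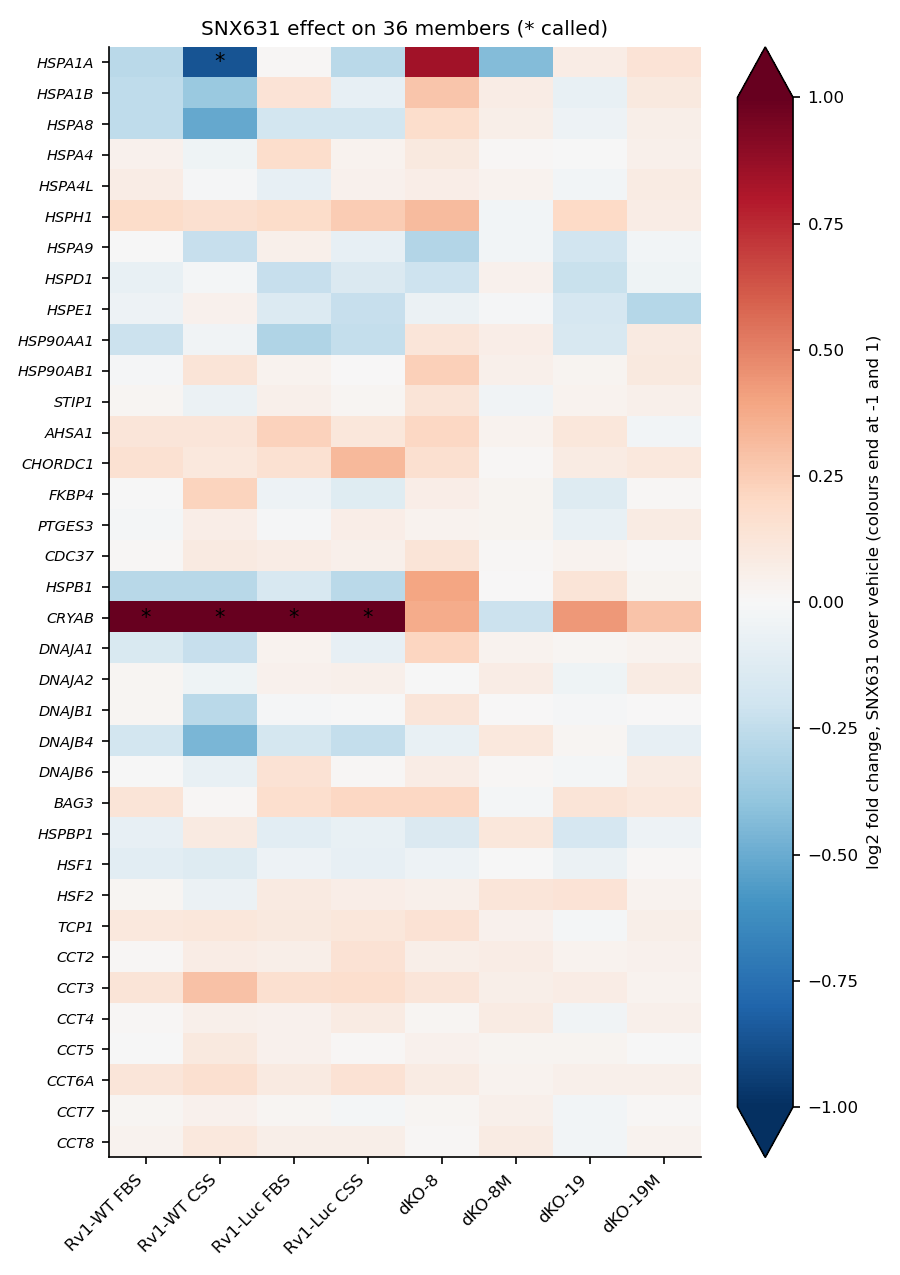
Log2 fold change of SNX631 over vehicle (color, from -1 in blue to 1 in red) for 36 members (rows) in 8 settings (columns), with asterisks on calls. CRYAB is called in the 4 columns of Rv1-WT and Rv1-Luc and HSPA1A in Rv1-WT in CSS, and most other cells are pale.

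The test of the difference between SNX631 effects found no member past the limits in the 6 planned contrasts. None was called between CSS and FBS in Rv1-WT (0.295% of all genes) or Rv1-Luc (0.08%), between the sublines in FBS (0.175%), between dKO-8 and dKO-8M (0.905%), between dKO-19 and dKO-19M (2.07%) or between dKO-19 and dKO-8 (0.885%). DESeq2 called none in these 6 contrasts, in 3 of which it gave CRYAB no adjusted p. In edgeR the unadjusted p was below 0.05 for 9, 5, 6, 15, 9 and 11 members in that order. Of all 20009 genes tested, 2925, 1867, 2372, 3677, 4355 and 3312 had such a p-value.

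The derivatives also differed under vehicle. In dKO-8M against dKO-8 1 member was called, CRYAB, where 7.03% of all genes were. In dKO-19M against dKO-19 2 were called (7.6% of all genes), CRYAB and HSPB1. HSPB1 read 679, 592 and 611 CPM in dKO-19 and 419, 345 and 357 CPM in dKO-19M, 1.68-fold lower (log2 -0.75 ± 0.056 (SE), FDR = 1.15e-15), and stayed called without the library of dKO-19M that stands apart. In dKO-8M against dKO-8 its log2 change was 0.072 ± 0.056 (SE). dKO-19 against dKO-8 gave 1 call (6.51% of all genes), HSPA1A at 1.52, 1.15 and 1.45 CPM against 0.608, 0.689 and 0.870 CPM (log2 0.89 ± 0.26 (SE), FDR = 0.00587), and this call was lost when any of 4 libraries was left out (replicates 1 and 2 of dKO-8 and 1 and 3 of dKO-19, FDR 0.0218 to 0.0322) and with HSPA1A and HSPA1B counted as 1 gene (log2 0.47 ± 0.05 (SE)). Most members leaned the same way there, and the kinase and the route by which the lines were made cannot be told apart. The log2 difference was positive for 34 of 36, with a median of 0.25 against -0.0028 over all genes, and it was 0.51 ± 0.042 (SE) for HSPA8, 0.51 ± 0.056 (SE) for HSPB1 and 0.21 to 0.42 for the TRiC/CCT subunits.

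Across all 16 groups the members differed widely in how far their group means spread. The ratio of the highest to the lowest group mean was 20.9 for HSPA1A and 14.8 for CRYAB, both of low count, then 5.48 for HSPB1 (125 to 687 CPM), 5.22 for HSPA8 (447 to 2333 CPM), 3.77 for HSPE1 and 3.48 for HSPA1B. DNAJB6 (1.26), CCT6A (1.31), HSF2 (1.32) and CCT4 (1.34) were the steadiest. The lowest group mean lay in the vehicle or SNX631 group of Rv1-WT in CSS for 27 of the 36 members. These spreads are a description of group means and were not tested.

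Other chaperone genes were read from a second list of 61 that held further HSP70, small heat shock, J-domain, BAG, prefoldin and mitochondrial genes, and 55 of them were tested. In vehicle-treated Rv1-WT 7 of these 55 fell in CSS and 2 rose, where 4.78% of all genes fell and 6.09% rose. The median log2 change was -0.093 over the 55 and 0.0071 over all genes. In vehicle-treated Rv1-Luc 2 fell and none rose, where 0.81% of all genes fell and 0.68% rose. FKBP5, a sister of FKBP4 that is itself an androgen-responsive gene, fell in both, by log2 -0.84 ± 0.044 (SE) in Rv1-WT and -0.86 ± 0.045 in Rv1-Luc. CACYBP (-0.84 ± 0.051), HSPA2, a testis-enriched HSP70 (-1.08 ± 0.074), and HSBP1, which binds HSF1 (-0.68 ± 0.049), fell in Rv1-WT. GRPEL2, an exchange factor of mitochondrial HSP70, rose (0.82 ± 0.05), as HSPA9 did, and so did HSPA13 (0.69 ± 0.048). The CSS effects on CACYBP, HSPA2 and HSBP1 were more positive in Rv1-Luc than in Rv1-WT by 0.74, 1.29 and 0.68 on the log2 scale, and those on GRPEL2 and HSPA13 more negative (-0.82 and -0.71), and all 5 differences were called.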

How the data were processed

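RNA-Seq libraries were prepared from total RNA of 48 cultures with a stranded kit. The submitters' processing notes name FastQC, cutadapt 2.8, STAR 2.7.2b, featureCounts and Subread 2.0.3 and the builds GRCh38.p13 and GRCm39, without saying which step used which. The authors deposited one table of estimated counts per gene, not normalized. 81.6% of its nonzero values were whole, and the fractions show that some reads were divided among genes.

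Counts were rounded and tested with edgeR 4.0.16 in R 4.3.3 (TMM scaling, quasi-likelihood F-test, one model of 16 groups with 32 residual degrees of freedom). Genes needed a count of 10 in enough libraries and a total of 15. P-values were adjusted by Benjamini-Hochberg over all 20009 genes within each of 27 comparisons, and the limits on FDR and fold change (0.01 and 1.5) are those of the study. CPM values use TMM-scaled library sizes. The standard error (SE) of a log2 fold change was derived from the test. It is the size of the change divided by the square root of its F statistic. Intervals from this model reflect the spread between 3 cultures per group.

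The members and lists were chosen with earlier results of these data known. Values in every library are given for members called in CSS against FBS in vehicle-treated Rv1-WT or in its interaction with Rv1-Luc (up to 10, by lowest p) and for any called under SNX631 with an active kinase. Other per-library values in the text, and DNAJB4, CHORDC1 and HSPA1A between lines, were chosen after values were seen. Of the second chaperone list at most 6 called genes with the lowest p in the same comparison are named. On simulated counts for CSS against FBS in vehicle-treated Rv1-WT, with 20009 genes of which 200 were changed, 99% of changes of 1 on the log2 scale and 100% of changes of 2 were recovered, with 0 false calls. Only simulated libraries of this comparison were fitted, and not the model of 16 groups used for the results. The changed genes were drawn from better covered genes only, and the counts followed the spread of the fit. The simulation therefore does not speak for genes of low count such as CRYAB or, in the dKO lines, HSPA1A.

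Replicate numbers are shared across groups in the labels, which do not say what a number marks. Deviations of same-numbered libraries correlated above 0.1 in all 3 pairs in SNX631 against vehicle in Rv1-WT in FBS (r = 0.198, 0.158 and 0.126), in dKO-19M (r = 0.552, 0.411 and 0.255) and in CSS against FBS in SNX631-treated Rv1-Luc (r = 0.147, 0.235 and 0.359). Alternatives were DESeq2 1.42.0, other size factors, no low-count filter, unrounded counts, HSPA1A and HSPA1B summed, the libraries of each comparison alone, a replicate block, other limits and leaving out each library.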

Additional observations from a re-analysis of the deposited data

Results flagged for a closer look

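By the test of the difference itself, CSS acted unequally in Rv1-Luc and in Rv1-WT for 10 members under vehicle and 10 under SNX631. Under vehicle the log2 differences, Rv1-Luc minus Rv1-WT, were HSPA1A 1.95, HSPA1B 1.67, HSPA8 1.31, HSPB1 1.12, FKBP4 1.04, HSPE1 0.94, HSPBP1 0.83, DNAJA1 0.76, HSPH1 0.64 and CCT3 0.59. Under SNX631 they were HSPA1A 2.26, HSPA1B 1.57, HSPA8 1.57, HSPB1 1.01, DNAJB1 0.79, HSPE1 0.75, HSPH1 0.74, FKBP4 0.74, DNAJA1 0.72 and HSPBP1 0.68. All lay on the same side in both treatments, and the plasma cell transcripts of Rv1-Luc, at 8.78 to 20.6 CPM in FBS and 1.59 to 3.37 CPM in CSS under vehicle, were not tested for a part in them. Under vehicle the calls of CCT3 and HSPH1 depended on the scaling.

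The SNX631 effect in FBS differed between Rv1-WT and dKO-8 for CRYAB by 1.78, HSPA1A by -1.11 and HSPB1 by -0.67 on the log2 scale, and between Rv1-WT and dKO-19 for CRYAB by 1.71. These contrasts were added after the data were seen, and the HSPA1A call was lost with HSPA1A and HSPA1B summed (-0.54 ± 0.069 (SE)).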

How the results depend on the processing

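Among 72 log2 changes of called members, 1183 of 1214 values under an alternative kept their direction and their side of the limits. Another 31 kept the direction but passed out of them, and 0 reversed. The alternative with looser limits (FDR below 0.05, no fold limit) reused the same fit, so it could not lose a call. HSPA1A has no value of its own once summed with HSPA1B, so its calls lost by summing are not among the 31. With an FDR below 0.05 and no fold limit, the members called under SNX631 numbered 10, 16, 12 and 14 in Rv1-WT in FBS and CSS and Rv1-Luc in FBS and CSS, and 17, 7 and 1 in dKO-8, dKO-19 and dKO-19M. They numbered 28, 31, 10 and 9 for CSS against FBS (Rv1-WT under vehicle and SNX631, then Rv1-Luc), 21 and 33 for Rv1-Luc against Rv1-WT in FBS and CSS, and 18, 20 and 29 for dKO-8M against dKO-8, dKO-19M against dKO-19 and dKO-19 against dKO-8. The interactions gave 23 and 21 for CSS under vehicle and SNX631, 4, 1, 7, 3 and 6 for SNX631 in CSS minus FBS in Rv1-WT, Rv1-Luc minus Rv1-WT, dKO-8 minus dKO-8M, dKO-19 minus dKO-19M and dKO-19 minus dKO-8, and 9 and 5 for Rv1-WT minus dKO-8 and minus dKO-19. These counts rise because the fold limit is dropped and the FDR is looser. By the same rule and in the same order, the shares of all genes under SNX631 were 14.5%, 26.5%, 20.3%, 23.9%, 13.5%, 20.6% and 2.41%. For CSS against FBS they were 44.9%, 40.6%, 14% and 12.7%, and between lines 52.5%, 67%, 30.5%, 33.3% and 33%. In the interactions they were 34.1% and 27.8% for CSS, and 3.13%, 1.48%, 6.2%, 9.87% and 4.77% for SNX631. For Rv1-WT minus dKO-8 and minus dKO-19 they were 8.51% and 7.66%.

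With HSPA1A and HSPA1B summed, 1 member was called under SNX631 in Rv1-WT in CSS and 0 in dKO-19 against dKO-8, since the HSPA1A call was no longer made. The HSPA1A calls in Rv1-Luc against Rv1-WT in FBS and in Rv1-WT minus dKO-8 were lost as well (log2 -0.44 ± 0.047 (SE) and -0.54 ± 0.069 (SE)). Library size without TMM also gave 0 calls in dKO-19 against dKO-8, with a log2 difference of HSPA1A of 0.82. Leaving out 1 library gave 0 to 1 calls in dKO-19 against dKO-8, 1 to 3 in Rv1-WT minus dKO-8 and 0 to 1 in Rv1-WT minus dKO-19, and 14 to 15 for Rv1-Luc against Rv1-WT in CSS and 9 to 11 for the CSS interaction under vehicle. The fit with a replicate block called 11 members for CSS against FBS in vehicle-treated Rv1-WT, as without it, and the block changed no member count in any comparison. DESeq2 gave CRYAB no adjusted p in 5 comparisons, 4 of them interactions, and these were not counted as lost calls. Over all genes, the count without the low-count filter was 6 in place of 3 for SNX631 in dKO-8M, 32 in place of 18 in dKO-19M, 50 in place of 16 for SNX631 in CSS minus FBS in Rv1-Luc and 73 in place of 35 for Rv1-Luc minus Rv1-WT. With only the libraries of the comparison, these 4 gave 15, 2, 1 and 19, CSS against FBS in SNX631-treated Rv1-Luc gave 185 in place of 303 and dKO-8 minus dKO-8M 301 in place of 181. The cause was not tested. Depth limits CRYAB and, in the dKO lines, HSPA1A, whose counts per library were low.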

Other observations

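Genes outside the 36 members, chosen after their values were seen, also separated the dKO derivatives from the other lines. HSPA1L, which lies beside HSPA1A, held 0 to 2 counts per dKO library and 8 to 58 in Rv1-WT and Rv1-Luc. HSPB6, a small heat shock protein, held 0 to 9 counts per dKO library and read 114 to 314 CPM in Rv1-WT and Rv1-Luc. Within the latter it fell under SNX631 by log2 -0.72 in Rv1-WT in FBS, -0.84 in Rv1-Luc in FBS and -0.74 in Rv1-Luc in CSS, and in Rv1-WT in CSS its change of -0.55 was inside the fold limit. The differences between dKO and other lines were not tested.

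DNAJA4, a J-domain protein, was higher with a kinase-dead protein, by log2 3.31 ± 0.42 (SE) in dKO-8M against dKO-8 and 2.74 ± 0.20 in dKO-19M against dKO-19, whereas CRYAB was lower in both. The vehicle libraries of dKO-8 held 4, 1 and 2 counts of DNAJA4, so the size of the first difference is uncertain. dKO-19 was also higher than dKO-8, both with an active kinase, by log2 2.60 ± 0.48.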
